A study of Mus musculus with 28 samples.

Results

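The mouse genes named Zfp followed by a number are described here, in their RNA and in the histone marks at their promoters, in primordial germ cells that lack Setdb1. The members were taken by name alone: the deposited promoter and RNA tables were joined by Ensembl identifier, and 344 of the 22138 genes carried such a name. They hold 340 distinct names, because Zfp319, Zfp664, Zfp708 and Zfp738 each stand for 2 identifiers. A further 27 names with other characters after the number were left out. The rule is a rule of nomenclature, so it takes in genes of several kinds. Among them are Zfp36, the mRNA-decay factor tristetraprolin, and Zfp161 and Zfp238, whose current symbols are Zbtb14 and Zbtb18. It leaves out zinc finger genes with other names.

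All cells came from the gonads of mouse embryos at E13.5. The labels give sorted SSEA1+ primordial germ cells (PGC, the embryonic precursors of sperm and eggs) and, from the same organ, SSEA1-negative gonadal somatic cells. The knockout (KO) germ cells were Setdb1 delta/-, with 2 RNA libraries in each sex. The controls called Het were delta/+ (Het1) and flox/- (Het2), with 2 RNA libraries of each in each sex, pooled here as 4 Het libraries per sex. A flox/+ library per sex (WT) and the C57BL/6 wildtype libraries of male PGC and male soma had no replicate and stood outside the tests. For the marks there was 1 library of H3K9me3 and 1 of H3K27me3 for each sex in KO and in flox/- Het, and 1 of H3K9me3 for C57BL/6 male soma. The Het cells have a single intact or conditional Setdb1 allele, so no comparison of KO is with a full pair of alleles except beside the WT values. The labels used here do not give the Cre line, nor whether the replicates came from different embryos, so p-values measure the spread between libraries, which may be technical.

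Zinc finger proteins of the C2H2 kind read DNA through arrays of small zinc-binding fingers, and in mammals the largest class joins these fingers to a KRAB domain. KRAB zinc finger proteins bind transposable elements and imprinted regions and recruit TRIM28, which brings in SETDB1, the methyltransferase that places H3K9me3, a mark of silent chromatin. Many of the genes lie in clusters of similar copies, and in other mouse and human cells the clusters themselves carry H3K9me3, mostly over the exons that encode the fingers rather than at the gene starts. H3K27me3 is the mark of Polycomb repression, typical of the promoters of silent developmental genes.

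Levels are given in RPKM (reads scaled to the length of the gene or window and to library size) as the authors computed them; the read depth is unknown, so no counting interval can be given. Setdb1 RNA over the whole gene was 27.1 and 31.2 RPKM in male KO against 37.5 to 52.1 RPKM in male Het, and 31.3 and 34.6 RPKM in female KO against 38.2 to 58.9 RPKM in female Het (log2 difference over both sexes -0.54, limma adjusted p = 0.0783). The KO libraries lay below every Het library of their sex, but this difference did not pass the threshold, and a deletion of part of a gene leaves reads over the rest. Germ cell markers were abundant in all 12 libraries of the cross (summed level of 10 measured genes 1128 to 2311 RPKM, against 17.1 RPKM in soma). Somatic markers were present at low levels, and some moved with genotype. Leydig cell markers summed to 29.8 to 70.4 RPKM over 7 genes in male KO against 4.60 to 7.71 RPKM in male Het and 845 RPKM in soma, and 5 of the 7 passed the test in males. The 5 stromal markers summed to 31.8 to 37.2 RPKM in female KO against 11.9 to 26.5 RPKM in female Het and 989 RPKM in soma, and none was at 0 throughout. The 7 Sertoli markers summed to 32.9 to 57.4 RPKM in male KO against 17.5 to 48.5 RPKM in male Het, to 47.4 to 61.6 RPKM in female KO against 20.02 to 37.4 RPKM in female Het, and to 612 RPKM in soma. In females Cldn11 held most of this sum, with means of 39.4 RPKM in KO and 17.1 RPKM in Het. The other Sertoli means were also higher in female KO, but Amh and Dhh were at most 0.395 RPKM there. Of the Sertoli and stromal markers 0 passed the test in females. The summed level of the 5 pregranulosa markers lay above every Het sum in both sexes, with 64.8 RPKM in soma. It was 12.3 to 12.8 RPKM in male KO against 9.82 to 11.2 RPKM in male Het. In females it was 13.3 to 14.9 RPKM in KO against 5.64 to 10.2 RPKM in Het. Of these markers 0 passed the test in either sex. Mean Foxl2 was lower in KO, at 0.035 against 0.082 RPKM in males and 0.225 against 0.395 RPKM in females. The other pregranulosa means were higher in KO in both sexes. In female KO the germ cell markers summed to 1128 to 1368 RPKM, against 1498 to 1821 RPKM in female Het. Other sums overlapped between KO and Het. Stromal markers in males had 23.4 to 23.8 RPKM in KO against 10.6 to 26.5 RPKM in Het. Leydig cell markers in females had 6.00 to 7.57 RPKM in KO against 5.98 to 12.7 RPKM in Het. Endothelial, macrophage and erythroid sums overlapped in both sexes, and the Sertoli sums overlapped in males. The part of these marker differences in the results below was not tested.

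A RefSeq promoter (250 bases before to 50 after the gene start, GRCm38.p6) was matched for 283 members, at 279 distinct promoters. Compared with 27025 promoters of 1 per gene symbol, the members' promoters held more CG dinucleotides (median 14 against 7 in 300 bases). The ETS core CCGGAAG, on either strand, was in 21.5% of the members' promoters and in 9.12% of all, the YY1 core GCCATNTT in 13.3% and 6.23%, and the Sp1 box GGGCGG in 44.8% and 35.9%. The TATA box TATAAA was in 6.09% of the members' promoters and in 14.2% of all. The Sp1 box and the ETS core each contain a CG dinucleotide, so their shares are not independent of the CG count. Such matches describe letters, not binding. The 5 promoters below are those on which the results turn: Zfp560 and Zfp618 are the members whose RNA rose in KO, Zfp445 and Zfp936 had high H3K9me3, and the gene that the tables call Zfp708 (identifier ENSMUSG00000074824, now Rslcan18) had the widest fall of H3K9me3 in males among the 15 members with the mark. Capitals mark CG dinucleotides, of which these windows hold 23, 59, 10, 6 and 3 in that order. They lie at chr9:20385109-20385408 (minus strand), chr4:62965317-62965616 (plus), chr9:122865957-122866256 (minus), chr7:43177340-43177639 (plus) and chr13:67113979-67114278 (minus). The RefSeq start may differ from the Ensembl start at which the marks were measured.
Zfp560: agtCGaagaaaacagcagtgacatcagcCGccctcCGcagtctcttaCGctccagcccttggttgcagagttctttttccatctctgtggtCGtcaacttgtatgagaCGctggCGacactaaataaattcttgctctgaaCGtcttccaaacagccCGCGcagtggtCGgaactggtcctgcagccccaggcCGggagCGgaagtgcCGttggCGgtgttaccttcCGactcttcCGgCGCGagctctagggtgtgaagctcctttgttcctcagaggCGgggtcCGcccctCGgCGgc
Zfp618: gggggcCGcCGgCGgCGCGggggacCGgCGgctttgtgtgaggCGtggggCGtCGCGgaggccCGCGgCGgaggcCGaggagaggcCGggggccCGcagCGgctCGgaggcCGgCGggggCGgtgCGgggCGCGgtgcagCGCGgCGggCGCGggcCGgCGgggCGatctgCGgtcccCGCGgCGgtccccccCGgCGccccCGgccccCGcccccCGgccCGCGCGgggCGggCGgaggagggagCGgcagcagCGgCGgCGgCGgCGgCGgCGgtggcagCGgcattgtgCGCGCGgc
Zfp445: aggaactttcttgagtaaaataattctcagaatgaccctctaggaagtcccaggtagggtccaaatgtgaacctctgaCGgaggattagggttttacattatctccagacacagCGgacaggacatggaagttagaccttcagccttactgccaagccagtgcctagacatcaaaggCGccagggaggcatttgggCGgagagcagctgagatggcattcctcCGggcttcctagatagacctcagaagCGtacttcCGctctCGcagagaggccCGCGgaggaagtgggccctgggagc
Zfp936: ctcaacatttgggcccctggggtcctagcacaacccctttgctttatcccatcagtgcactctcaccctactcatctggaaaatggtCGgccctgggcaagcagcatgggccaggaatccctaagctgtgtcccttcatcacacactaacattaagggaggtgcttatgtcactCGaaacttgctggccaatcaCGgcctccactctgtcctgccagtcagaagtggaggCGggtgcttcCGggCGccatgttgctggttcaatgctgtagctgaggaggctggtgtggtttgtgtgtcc
Rslcan18: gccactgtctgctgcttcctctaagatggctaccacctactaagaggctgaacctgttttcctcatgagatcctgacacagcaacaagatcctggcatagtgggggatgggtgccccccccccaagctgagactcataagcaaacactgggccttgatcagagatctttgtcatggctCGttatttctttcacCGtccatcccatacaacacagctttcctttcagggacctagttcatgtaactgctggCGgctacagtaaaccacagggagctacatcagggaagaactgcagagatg

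Zinc finger genes were broadly transcribed in germ cells, at moderate levels. Of the 344 members 323 (93.9%) reached 1 RPKM in at least 2 of the 12 libraries and were tested, against 61.1% of all genes. The median over Het libraries was 6.18 RPKM for the members and 1.83 RPKM for all genes, but among tested genes the members were lower, at 6.58 RPKM against 9.55 RPKM. Their levels were also drawn together: the 10th and 90th percentiles were 1.97 and 23.6 RPKM for tested members against 1.02 and 52.4 RPKM for all tested genes. Only 5 members exceeded 50 RPKM. The highest in Het were Zfp428, with 38.4 to 49.6 RPKM in female KO against 35.3 to 66.4 RPKM in female Het and 60.0 to 105 RPKM in male KO against 59.5 to 161 RPKM in male Het, Zfp217, a partner of the histone demethylase LSD1, Zfp207, a spindle and kinetochore protein, and Zfp106, an RNA-binding protein. None of these 4 passed the test for KO against Het. The 21 members not tested include Zfp735, listed at 0 in every KO library and at most at 0.03 RPKM in Het, and the neural genes Zfp488 and Zfp536.

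In KO germ cells 2 zinc finger genes rose and 0 fell. Limma was fitted on log2(RPKM + 1) over all 13518 genes tested, with Benjamini-Hochberg adjustment at 0.05. In males 1 of 323 members rose, Zfp560, while 0.614% of all tested genes were called. At an unadjusted p under 0.05 there were 22 members higher and 3 lower in males, 7.74% of the members against 4.55% of all tested genes. In females 0 members passed (31 higher and 4 lower at an unadjusted p under 0.05, 10.8% of the members against 12.3% of all tested genes), against 0.407% of all tested genes (0.399% higher and 0.0074% lower). Over both sexes 2 members rose, Zfp560 and Zfp618, which is 0.619% of the members against 1.04% of all tested genes (1.01% higher and 0.0296% lower), a share near or below the background. A difference of the KO effect between the sexes passed for 0 members (8 at an unadjusted p under 0.05, 2.48% of the members against 3.65% of all tested genes), against 0.0518% of all tested genes. KO lay apart from Het in opposite directions in the sexes for 2 members, Zfp574 and Zfp668, and for 0.377% of all tested genes.

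Zfp560 stood at 5.16 and 5.56 RPKM in male KO, against 2.55, 2.17, 2.49 and 2.11 RPKM in male Het. Its female values were 4.92 and 4.71 RPKM in KO, against 2.74, 3.06, 3.02 and 3.01 RPKM in Het. Every KO library lay above every Het library of its sex, with no overlap. The WT libraries had 2.33 RPKM in males, within the Het range, and 3.40 RPKM in females, above the Het range and below both KO libraries. The log2 difference was 0.94 in males (SE 0.17, limma adjusted p = 0.0181), 0.56 in females (SE 0.17, adjusted p = 0.204) and 0.75 over both (SE 0.12, adjusted p = 0.00649). The direction held whichever library was left out, with a range of 0.72 to 0.77 over both sexes when 1 of male KO replicate 1, male KO replicate 2 or female KO replicate 1 was left out, but each of these ended the call (adjusted p = 0.0502, 0.0676 and 0.0563 in that order). In males the call ended without either KO replicate (adjusted p = 0.279 and 0.434), without Het1 replicate 2 (0.0707) or without Het2 replicate 2 (0.0629), at differences of 0.89 to 0.98.

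Zfp618, whose human counterpart is a partner of the protein UHRF2, stood at 8.45 and 10.1 RPKM in male KO, against 5.59, 6.57, 2.59 and 4.66 RPKM in male Het. In females it stood at 10.3 and 8.67 RPKM in KO, against 4.10, 3.90, 4.89 and 3.63 RPKM in Het. The groups did not overlap in either sex, and the WT libraries had 3.44 RPKM in males, within the Het range, and 5.25 RPKM in females, above the Het range and below both KO libraries. Across the sexes its log2 difference was 0.95 (SE 0.18, limma adjusted p = 0.0269), and neither sex passed alone (0.86 in males, adjusted p = 0.409; 1.03 in females, adjusted p = 0.131). Its call ended when any 1 of the 4 KO libraries was left out (adjusted p = 0.0852 to 0.208), without male Het2 replicate 2, female Het1 replicate 2 or female Het2 replicate 2 (0.0534, 0.0599 and 0.0617), and under median centring (0.058). Zfp618 is one of the members with most RNA in gonadal soma: 2.35 RPKM in C57BL/6 male PGC against 35.5 RPKM in soma. Stromal and Sertoli marker sums were higher in female KO than in female Het, as given above, the Sertoli sum mostly through Cldn11. The part of these sums in the rise of Zfp618 was not tested.

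**Figure D1:**
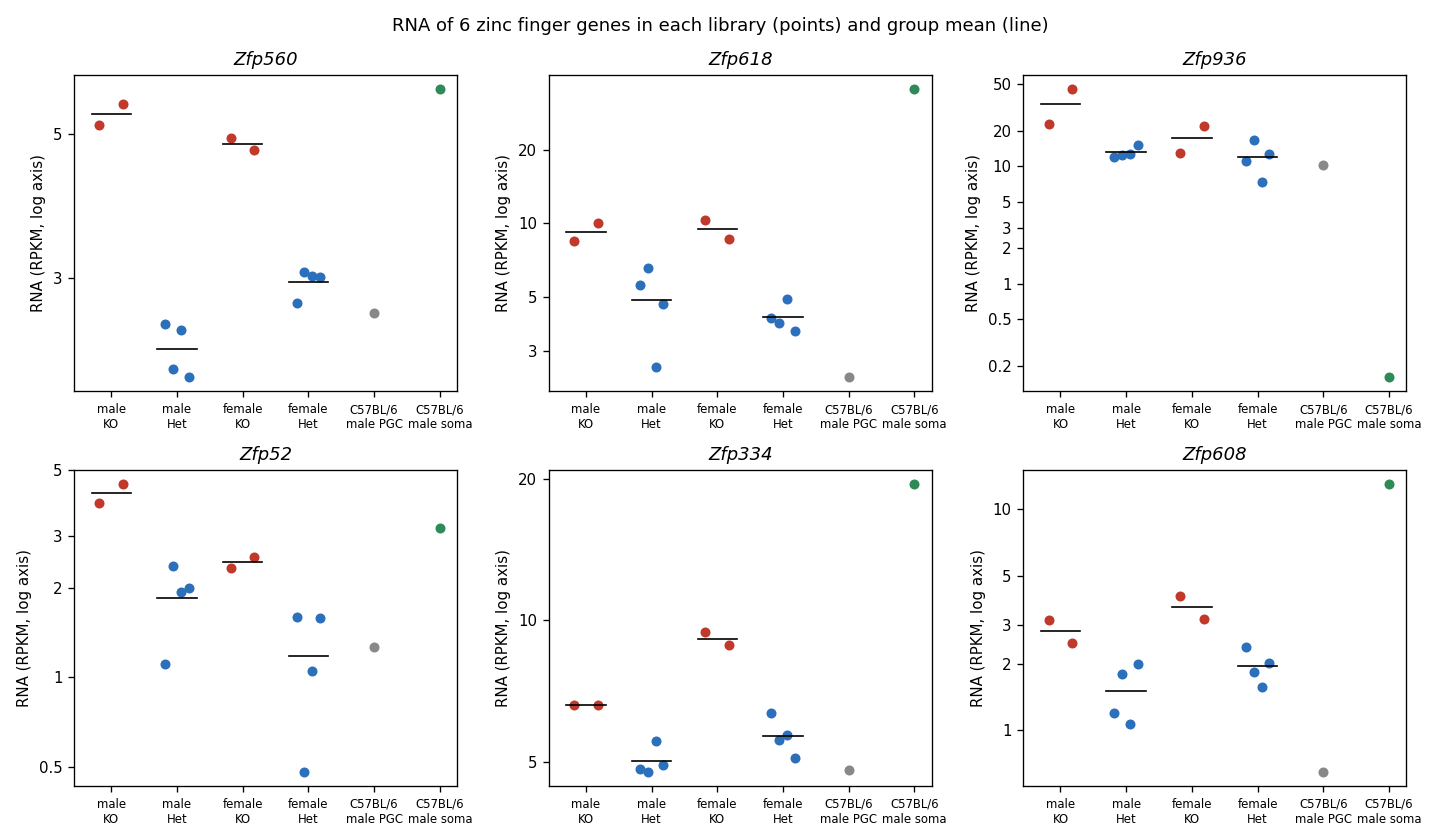
RNA of 6 members in each library, in RPKM on a log axis, with KO (red), Het (blue), and the C57BL/6 male PGC (grey) and male soma (green) libraries; lines are means of 2 KO or 4 Het libraries. Zfp560, Zfp618, Zfp52, Zfp334 and Zfp608 have no overlap of KO with Het in either sex and are higher in KO, Zfp936 in males only, and soma lies far below PGC for Zfp936 and above it for the other 5.

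The members next in order of p did not pass in the main fit. With replicate number as a block, Zfp936 passed in males and over both sexes, and Zfp334 over both sexes, as given in the closing section. Zfp936 came next in males, with 22.9 and 45.4 RPKM in KO against 12.1, 12.6, 12.7 and 15.2 RPKM in Het (log2 difference 1.24, SE 0.31, limma adjusted p = 0.18). The difference was 1.72 without male KO replicate 1 and 0.77 without male KO replicate 2. In females it had 12.9 and 21.9 RPKM in KO against 11.0, 16.8, 7.37 and 12.8 RPKM in Het, with overlapping groups (log2 difference 0.51, adjusted p = 0.565). It is a germ cell gene in these data, with 10.3 RPKM in C57BL/6 PGC and 0.16 RPKM in soma. Zfp52 had 3.87 and 4.50 RPKM in male KO against 1.11 to 2.37 RPKM in male Het, and 2.35 and 2.55 RPKM in female KO against 0.48 to 1.60 RPKM in female Het (both sexes 0.79, adjusted p = 0.0747). Zfp334 (0.47, adjusted p = 0.0802), Zfp608 (0.63, adjusted p = 0.085) and Zfp810 (0.57, adjusted p = 0.105) had the same order of libraries in both sexes. In males Zfp677 had 5.94 and 9.66 RPKM in KO against 3.06 to 3.31 RPKM in Het (1.04, adjusted p = 0.244), and Zfp558 had 0.62 (adjusted p = 0.599). The 2 male differences of similar size at higher p were Zfp600 (1.25, adjusted p = 0.734) and Zfp934 (1.201, adjusted p = 0.961), picked for their size. In females Zfp235 (0.80, adjusted p = 0.192), Zfp827 (0.69, adjusted p = 0.155) and Zfp579 (0.84, adjusted p = 0.19) came next. Without female Het2 replicate 1 Zfp235 passed in females (0.95, adjusted p = 0.048).

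By the order of libraries alone, 13 members had all KO libraries above all Het libraries of their sex in both sexes, which is 4.02% of the tested members against 3.06% of all tested genes. Besides Zfp560 and Zfp618 they were Zfp2, Zfp52, Zfp53, Zfp146, Zfp235, Zfp266, Zfp334, Zfp563, Zfp608, Zfp697 and Zfp810. The reverse order held for 0 members and for 0.466% of all tested genes. In males alone 42 members lay above, against 9.01% of all tested genes, and 10 below (3.10%, against 4.13%). In females 58 lay above (17.96%, against 14.8%) and 7 below (2.17%, against 5.62%).

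The differences of the members were small and mostly positive. Their median log2 difference was 0.10 in males and 0.12 in females, with 75.2% and 69.7% of the 323 above 0. Single KO libraries moved these values: the male median was 0.06 (59.8% above 0) without male KO replicate 2 and 0.17 (69.97%) without male KO replicate 1, and the female median was 0.08 (58.2%) without female KO replicate 2. Over all tested genes the medians were 0.03 and 0.07, with 55.7% and 60.1% above 0. Over both sexes the members ran from -0.41 (Zfp750) to 0.95 (Zfp618), with 243 above 0. Scaling moved this offset: with each library centred on its median the members' median over both sexes was 0.02, with 54.2% above 0, beside a median of -0.05 and 41.1% for all genes, and with quantile normalization it was 0.00 (49.8% above 0) beside -0.03 (44.6%). In females the members' median turned to -0.02 under both, beside -0.07 (centred) and -0.03 (quantile) for all genes. In males it was 0.04 under both, beside -0.03 (centred) and -0.02 (quantile) for all genes. Members in genomic clusters, those with another member among the 3 genes on either side, numbered 207 and had a median over both sexes of 0.13 (79.8% of 198 tested above 0), and the 135 that stand alone had 0.10 (67.7% of 124 above 0). In males the medians were 0.14 in clusters and 0.06 outside (80.3% and 66.9% above 0). In females their order turned, at 0.11 and 0.13 (71.7% and 66.1% above 0).

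The size of a member's difference went with its level in gonadal soma, which was measured in C57BL/6 libraries that took no part in the KO and Het comparison. Among 85 tested members with RNA at least 2-fold higher in soma than in PGC, 82 had a positive difference over both sexes (96.5%), with a median of 0.25. Among 22 members at least 2-fold higher in PGC, 6 were positive (27.3%), with a median of -0.09. The same split ran through all tested genes: 87.1% positive with a median of 0.26 among 3098 genes higher in soma, and 27.6% positive with a median of -0.10 among 2362 higher in PGC. In females the members' medians were 0.35 (higher in soma) and -0.12 (higher in PGC), and in males 0.18 and -0.01. The 211 members within 2-fold had 72.0% positive and a median of 0.09, against 56.8% and 0.03 for 7109 genes of that class. Of the 13 members whose KO libraries lay apart in both sexes 9 were at least 2-fold higher in soma and 0 at least 2-fold higher in PGC. In bulk samples, more RNA per germ cell and more cells of another kind cannot be told apart. Some of the somatic marker sums given above were higher in KO without overlap, and others overlapped between KO and Het. Their part in this pattern was not tested.

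**Figure D2:**
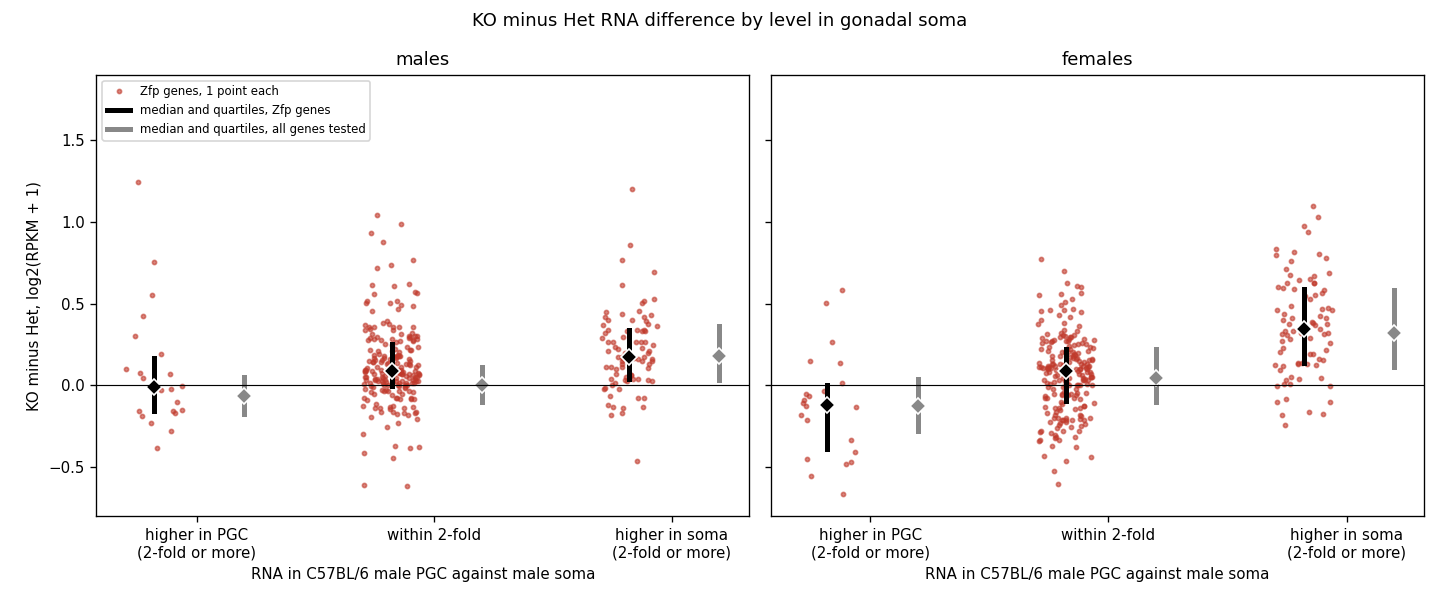
KO minus Het difference on the log2(RPKM + 1) scale for each Zfp gene (red points), in males and females, by its RNA in C57BL/6 male PGC against soma, leaving out 5 members below 1 RPKM in both. Diamonds and bars are medians and quartiles of the Zfp genes (black) and of all genes tested (grey); in females the medians of the Zfp genes run from -0.12 in genes higher in PGC to 0.35 in genes higher in soma.

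No member of the list for retroviral silencing and imprinting passed in any comparison of KO with Het. The list takes in 12 members by name, all tested, with medians of 0.17 in males, 0.05 in females and 0.08 over both sexes. One of these entered by the shared name Zfp708 and is now Rslcan18; without it the other 11 had medians of 0.17, -0.01 and 0.06, so the female median lies near 0 and its sign turns on that gene. Zfp809, which silences murine leukaemia virus through TRIM28 in mouse embryonic stem cells, had 12.02 and 18.8 RPKM in male KO against 5.32 to 11.2 RPKM in male Het (0.72, limma adjusted p = 1). Its groups were apart in males, but in females 12.9 and 19.4 RPKM in KO overlapped 8.91 to 19.2 RPKM in Het. Zfp57, which keeps imprints, had 8.81 and 6.81 RPKM in female KO against 4.20, 3.05, 3.06 and 3.59 RPKM in female Het (0.98, adjusted p = 0.3), and passed in females without male Het1 replicate 1, which enters the shared estimate of the spread. In males its groups overlapped, at 4.03 and 3.66 RPKM in KO against 0.54 to 3.77 RPKM in Het. Zfp57 also has more RNA in soma (20.8 RPKM) than in C57BL/6 PGC (1.11 RPKM). Zfp445, which acts with Zfp57 at imprinted regions, had 21.1 and 28.8 RPKM in male KO against 18.1 to 29.1 RPKM in male Het, and 27.3 and 30.8 RPKM in female KO against 18.7 to 25.4 RPKM in female Het (both sexes 0.27, adjusted p = 0.484). Zfp568, a repressor of a placental Igf2 transcript, differed by 0.06 (SE 0.10, adjusted p = 0.885).

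The 10 members of the pluripotency and stem cell list were all tested and 0 passed, with medians of -0.02 in males, -0.22 in females and -0.14 over both sexes. Zfp42 (Rex1), a classic marker of pluripotent cells, had 35.6 and 28.1 RPKM in male KO against 22.5 to 43.4 RPKM in male Het, and 11.9 and 14.2 RPKM in female KO against 12.98 to 28.2 RPKM in female Het (females -0.47, limma adjusted p = 0.587). Zfp296, a stem cell factor, ran from 0 to 9.17 RPKM among the female Het libraries, which covers the female KO values of 2.72 and 2.08 RPKM. Zfp281, which takes part in the exit from pluripotency, had -0.15 over both sexes (adjusted p = 0.828). Of 16 lineage and tissue regulators 14 were tested and 0 passed, with a median of 0.07 over both sexes. All 3 lists were drawn up from general knowledge with earlier results of these data known.

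H3K9me3 was low at zinc finger promoters in germ cells, as it was at promoters at large. Within 1 kb of the gene start the members' median was 0.091 RPKM in male KO against 0.104 RPKM in male Het, and 0.121 RPKM in female KO against 0.161 RPKM in female Het. For all 22138 promoters the medians were 0.136 RPKM in male KO against 0.127 RPKM in male Het, and 0.149 RPKM in female KO against 0.179 RPKM in female Het. In Het 4 members reached 1 RPKM in males (1.16%, against 1.35% of all promoters) and 5 in females (1.45%, against 1.28%). In KO 3 did so in males (0.872%, against 1.52%) and 1 in females (0.291%, against 0.718%). The female KO library was lower over promoters at large, with a median log2 ratio of -0.16 for all promoters and -0.22 for the members, against 0.06 and -0.02 in males.

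With 1 library per group, a promoter was called gained where KO was 2-fold or more above Het in each sex. It was called lost where KO was 2-fold or more below Het in each sex. Folds were taken once 0.1 RPKM had been added, and the higher of KO and Het had to reach 1 RPKM in each sex. Among the 4 members that reached this level, Zfp445, Zfp575, Zfp873 and Zfp936, 0 were lost and 0 gained, while 7.14% of the 238 promoters at this level were lost and 0.42% gained. A limma fit of genotype and sex to the 4 libraries, in which the sexes serve as replicates, called 0 of the 4 (1 at an unadjusted p under 0.05, smallest adjusted p = 0.114) and 0 of the 238. The imprint factor gene Zfp445 had the highest values, 1.18 RPKM in male KO against 1.49 RPKM in male Het, and 0.859 RPKM in female KO against 1.54 RPKM in female Het. Zfp936 had 0.932 RPKM in male KO against 1.46 RPKM in male Het, and 0.906 RPKM in female KO against 1.21 RPKM in female Het. Zfp873 kept 1.03 RPKM in male KO against 1.05 RPKM in male Het, and 1.12 RPKM in female KO against 1.38 RPKM in female Het. The largest fall of the 4 in females was at Zfp575, with 0.44 RPKM in KO against 1.43 RPKM in Het, and in males it had 0.742 RPKM in KO against 1.31 RPKM in Het. Zfp575 RNA was at most 0.36 RPKM in any library of the cross.

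Lower down, where the higher of KO and Het reached 0.5 RPKM in each sex, 15 members (4.36%, against 8.23% of all promoters) could be compared. Of these 8 were lower in KO in both sexes, 3 higher in both and 4 differed between the sexes; over all 1821 promoters at that level 35.3% were lower in both and 17.4% higher in both. Here 1 member was lost, Zfp560, against 2.86% of the 1821 promoters, and 1 was gained, Zfp939, against 0.22%. The Zfp560 promoter had 0.262 RPKM in male KO against 0.845 RPKM in male Het, and 0.226 RPKM in female KO against 0.724 RPKM in female Het, log2 ratios of -1.38 and -1.34. Zfp560 was the only one of the 15 that was at least 2-fold lower in both sexes. It is also the member with the smallest adjusted p for KO against Het RNA over both sexes. At this level Zfp560 entered by its Het values alone, and Zfp939 by its KO values alone. Such a filter favours a fall or a rise of that kind, so the promoter call is no support for the RNA difference of Zfp560. Its H3K27me3 stood at 0.203 RPKM in male KO against 0.631 RPKM in male Het, and at 0.269 RPKM in female KO against 0.629 RPKM in female Het. This mark too reached 0.5 RPKM by the Het values alone, and it was not called lost at that level.

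At the other promoters with wide differences RNA did not pass the test. The promoter listed as Zfp708 and now called Rslcan18, a candidate from the cluster of regulators of sex-limited liver genes, had 0.248 RPKM in male KO against 0.917 RPKM in male Het, and 0.293 RPKM in female KO against 0.644 RPKM in female Het (log2 ratios -1.55 and -0.92, the second just short of 2-fold). Its RNA had 3.13 and 2.17 RPKM in male KO against 2.08 to 2.64 RPKM in male Het, and 2.83 and 3.94 RPKM in female KO against 1.98 to 4.49 RPKM in female Het (both sexes 0.10, limma adjusted p = 0.906). Conversely the Zfp618 promoter was near 0 in all groups, with 0.071 RPKM in male KO against 0.051 RPKM in male Het and 0.028 RPKM in female KO against 0.011 RPKM in female Het. At Zfp939 the mark was higher, with 0.896 RPKM in male KO against 0.246 RPKM in male Het and 0.712 RPKM in female KO against 0.291 RPKM in female Het, and its RNA overlapped between groups (both sexes 0.08, adjusted p = 0.921). The Zfp42 promoter had 0.599 RPKM in male KO against 0.293 RPKM in male Het, and 0.608 RPKM in female KO against 0.485 RPKM in female Het. Across the members the log2 differences of RNA and of promoter H3K9me3 had Spearman rho 0.10 in males and -0.13 in females, over 323 genes that share their libraries. Reads that fit several similar zinc finger genes could not be followed, since no source used here gives their treatment.

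**Figure D3:**
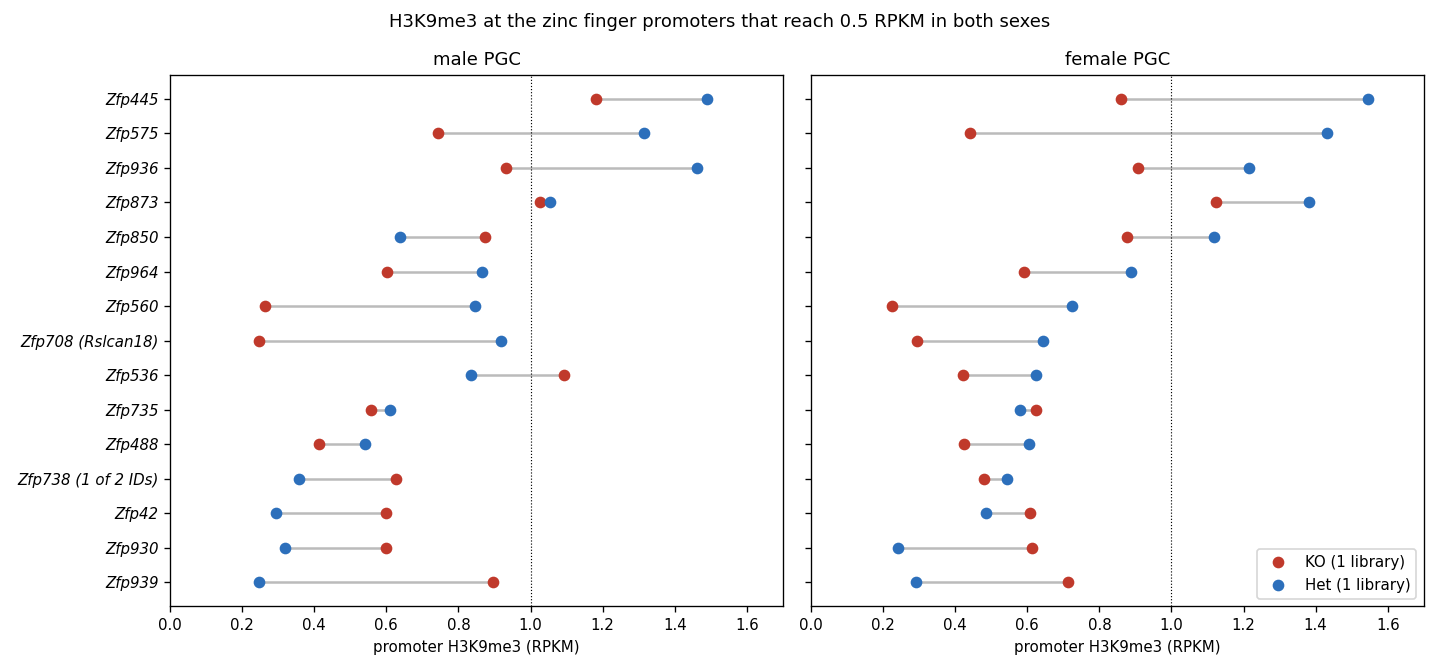
H3K9me3 in RPKM within 1 kb of the gene start, in KO (red) and Het (blue), 1 library each. The 15 members shown are those where the higher of KO and Het reached 0.5 RPKM in each sex. The dotted line marks 1 RPKM. Zfp560 and Zfp708 (Rslcan18) show the widest falls relative to Het in males, and Zfp939, Zfp930 and Zfp42 are higher in KO in both sexes.

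H3K27me3 was rarer at zinc finger promoters than at promoters at large. In males 8 members reached 1 RPKM in KO and 9 in Het (2.33% and 2.62%), against 11.4% and 11.9% of all promoters. In females 2 did so in KO and 7 in Het (0.581% and 2.03%), against 4.84% and 8.28%. In 5 members the higher of KO and Het reached 1 RPKM in each sex. These were Zfp488 and Zfp536, regulators of oligodendrocyte and neuronal differentiation, Zfp503, a developmental repressor also called Nolz1, Zfp575 and Zfp648. None was lost or gained by the 2-fold rule, against 0.0556% of 1800 promoters lost, and the limma fit to the 4 libraries called 0 (2 at an unadjusted p under 0.05, smallest adjusted p = 0.233). At 0.5 RPKM 37 members could be compared, and 0 were lost and 0 gained, against 0.113% lost and 0.0% gained of 6206 promoters. Zfp536 had the most, 2.14 RPKM in male KO against 2.08 RPKM in male Het and 1.29 RPKM in female KO against 1.36 RPKM in female Het, with RNA of at most 0.25 RPKM in the 12 libraries. Zfp503 had 1.41 RPKM in male KO against 1.81 RPKM in male Het, and 0.673 RPKM in female KO against 1.12 RPKM in female Het. Its RNA was 26.2 and 20.4 RPKM in female KO against 14.3, 8.89, 13.8 and 10.2 RPKM in female Het, apart in females but not called (0.94, limma adjusted p = 0.245), and its soma level was 64.5 RPKM. Across the 344 members the RNA in Het fell with H3K27me3 (Spearman rho -0.34 in males and -0.37 in females), much as across all genes (-0.34 and -0.31). Zfp575, Zfp488 and Zfp536 were also among the 15 members at 0.5 RPKM of H3K9me3.

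Between the sexes, in Het germ cells, 83 members differed: 56 were higher and 27 lower in females. This is 25.7% of those tested, against 31.9% of all tested genes (17.6% higher and 14.3% lower). In 62 members every female library lay above every male library, against 17.3% of all tested genes, and in 23 below, against 14.0%. The split of calls depends on scaling: with libraries centred on their medians 38 were higher and 39 lower, and with quantile normalization 35 and 38. At E13.5 female germ cells enter meiosis while male germ cells move towards arrest. The largest rise was in Zfp711, a relative of Zfx, with 7.49, 10.3, 18.4 and 5.87 RPKM in females against 0.57, 1.45, 1.17 and 0.73 RPKM in males (log2 difference 2.45, SE 0.28, limma adjusted p = 6.87e-05). The sexes did not overlap. Zfp711 lies on the X chromosome, and the part of X chromosome number in this difference was not tested. Zfp521, a progenitor regulator, stood at 17.2 to 23.8 RPKM in females against 1.92 to 6.78 RPKM in males (2.11, adjusted p = 8.22e-05), and was also high in male soma (30.9 RPKM). Zfp541, which is needed in meiotic spermatocytes in mice, had 3.19, 6.91, 28.0 and 2.12 RPKM in females against 1.47, 0.73, 0.37 and 0.55 RPKM in males (2.09, SE 0.53, adjusted p = 0.0103). Female Het2 replicate 1 held most of that RNA, and the female KO libraries had 14.6 and 9.12 RPKM. Zfp398 (1.75, adjusted p = 1.25e-04) and Zfp462, a stem cell factor (1.41, adjusted p = 0.00173), completed the 5 largest rises.

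The largest fall was in Zfp819, a repressor of retroelements described in mouse pluripotent cells, with 2.06, 1.22, 1.41 and 2.58 RPKM in females against 7.56, 8.71, 10.2 and 7.25 RPKM in males (-1.76, SE 0.22, limma adjusted p = 1.28e-04). It was germ cell-restricted in the C57BL/6 pair (9.07 RPKM in PGC, 0.18 RPKM in soma). Zfp771 (-1.61, adjusted p = 8.51e-04), Zfp750, whose human counterpart drives epidermal differentiation (-1.37, adjusted p = 0.00429), Zfp455 (-1.29, adjusted p = 0.00105) and Zfp869 (-0.98, adjusted p = 0.00148) followed, and in none of the 5 did the sexes overlap. In KO, Zfp819 had 0.73 and 0.76 RPKM in females, below all female Het libraries, against 1.22 to 2.58 RPKM there (-0.67, adjusted p = 0.325). Among the retroviral and imprint list 4 were higher and 1 lower in females, among the pluripotency list 2 and 1, and among the lineage list 3 and 3. The count of 83 fell to 12 with Het1 alone, to 20 with Het2 alone, to 53 without male Het2 replicate 1 and to 55 without female Het1 replicate 2.

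**Figure D4:**
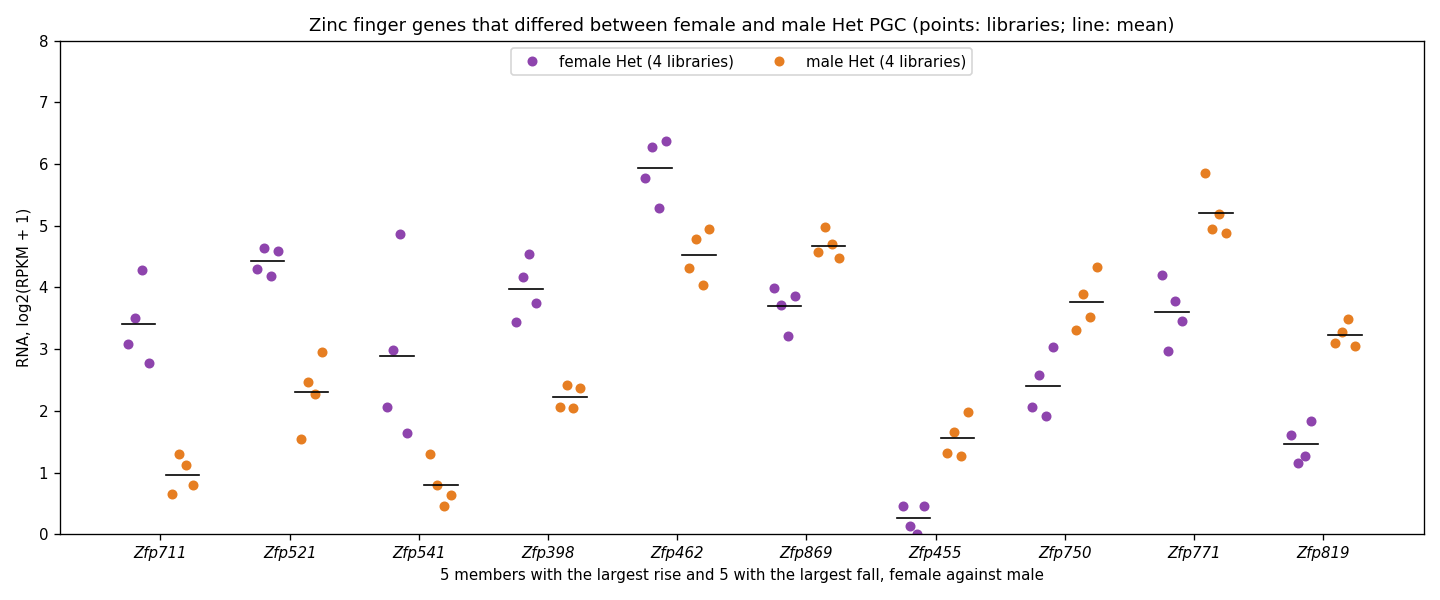
RNA in each Het library of females (purple) and males (orange), as log2(RPKM + 1), for the 5 members with the largest rise and the 5 with the largest fall in females; lines are means of 4 libraries. The sexes do not overlap for any of the 10, and Zfp541 is the most scattered among females, at 2.12 to 28.0 RPKM.

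Against gonadal soma of the same strain and sex, more zinc finger genes were lower than higher in germ cells, as among all genes. The share of members that were lower was near that of all genes, and the share that were higher was below it. With 1 library each there is no test. Of 324 members that reached 1 RPKM in either, 90 were at least 2-fold lower in PGC and 22 at least 2-fold higher after adding 1 RPKM, against 28.7% lower and 17.6% higher among all genes. The median log2 ratio was -0.46 for the members and -0.14 for all genes. Zfp42 stood furthest towards germ cells, with 58.4 RPKM in PGC and 0.19 RPKM in soma, followed by Zfp936, Zfp819, Zfp750 (11.9 and 0.83 RPKM) and Zfp296 (12.8 and 1.16 RPKM). Furthest towards soma were Zfp503 (2.73 RPKM in PGC and 64.5 RPKM in soma), Zfp423, an adipose and neural lineage factor (1.10 and 34.3 RPKM), Zfp362 (1.47 and 39.8 RPKM), Zfp9 (0.65 and 23.8 RPKM) and Zfp618. In clusters 8 members were 2-fold higher in PGC and 59 lower, of 201 past the level; outside clusters 14 were higher and 31 lower, of 122.

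**Figure D5:**
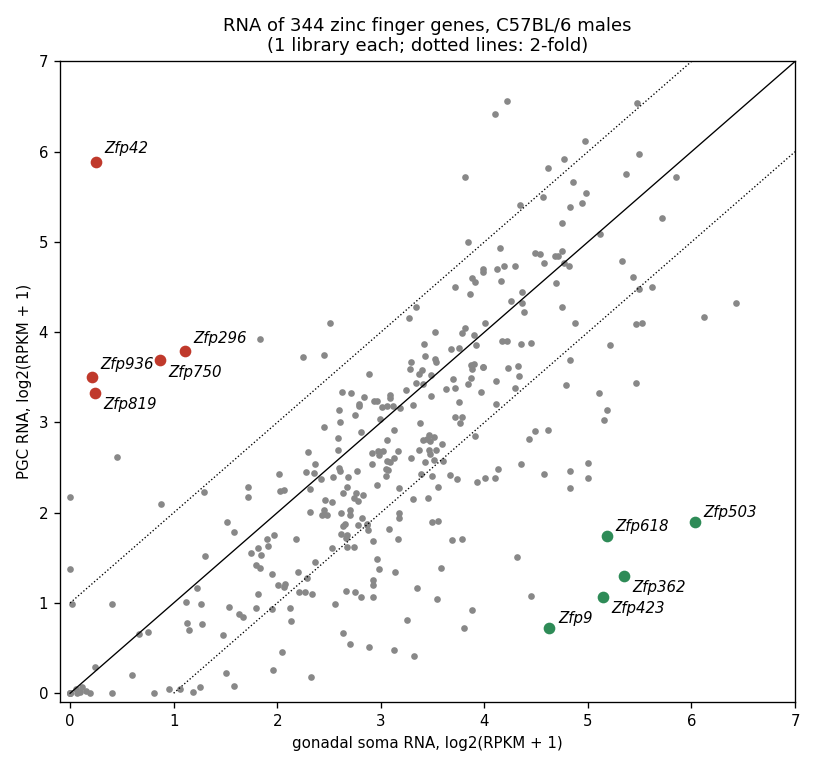
RNA of the 344 members in C57BL/6 male PGC (vertical axis) against male gonadal soma (horizontal axis), as log2(RPKM + 1), 1 library each; dotted lines mark 2-fold. The 5 members furthest towards PGC (red) and the 5 furthest towards soma (green) are named, with Zfp42 at 58.4 RPKM in PGC and 0.19 RPKM in soma.

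H3K9me3 at zinc finger promoters was lower in male Het PGC than in C57BL/6 male soma, at a median of 0.104 RPKM against 0.729 RPKM, but the medians over all promoters were 0.127 and 0.721 RPKM. Of 53 members past 1 RPKM in either library, 45 were at least 2-fold lower in PGC, against 79.4% of 4306 promoters. Another 2 were higher, Zfp445 and Zfp936, against 2.44%. With 0.5 RPKM added in place of 0.1 RPKM, 42 members were lower and 0 higher. Of the 4306 promoters 2683 were then lower and 42 higher. Zfp445 had 1.49 RPKM in PGC and 0.578 RPKM in soma, and Zfp936 had 1.46 and 0.619 RPKM. The widest differences towards soma were at Zfp942 (0.04 RPKM in PGC and 1.12 RPKM in soma), Zfp687, Zfp943, Zfp788 and Zfp1, all at 1.02 to 1.12 RPKM in soma and at most 0.047 RPKM in PGC. Centred on the median promoter, 7 members were lower, against 11.0% of all promoters at this level, and 7 higher, against 18.7%. Strain and genotype also differ between these libraries, and they cannot be told apart from the cell type.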

How the data were processed

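The RNA and promoter values are RPKM as deposited by the authors. Reads were aligned to mm9 with BWA, with SAMtools used for RNA, per the submitters' processing notes. Versions, the counter and the treatment of reads that fit several places were not stated in the labels or headers. Depth is unknown, and whole reads could not be recovered. Promoter values cover 1 kb either side of an Ensembl start, by the name of the deposited table.

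RNA was tested with limma 3.58.1 in R 4.3.3 on log2(RPKM + 1), two-sided, over genes at 1 RPKM or more in at least 2 of 12 libraries, with 4 group means (KO and Het in each sex). P-values were Benjamini-Hochberg adjusted over all genes tested, and the procedure was tested on simulated data. Fold changes on this scale understate those of low genes. Marks had 1 library per group, so calls rest on folds after adding 0.1 RPKM; a limma fit of genotype and sex to the 4 libraries of each mark, with 1 residual degree of freedom, was an alternative. Genes named in the text are those called, the 5 next by p, those with the most RNA or H3K9me3 in Het, the role lists, and the 5 widest differences each way in sex and cell type; a few others were chosen after their values were seen. The members and lists were chosen with earlier results of these data known, and the split by level in soma and the list without Rslcan18 were chosen after seeing the data. Alternatives were another pseudocount, filter, scaling, Het group and fold, a replicate block and each library left out. The methylation and pan-H3 libraries were not analysed here.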

Additional observations from a re-analysis of the deposited data

Results flagged for a closer look

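In 7 of 148 groups of 4 Het libraries, over 74 genes checked, 1 library stood apart from the other 3; chance gives about 1 group in 20. In male Het1 replicate 1, Zfp516 stood at 68.9 RPKM (34.7 to 37.0 RPKM in the others), Zfp57 at 0.54 RPKM (3.22 to 3.77 RPKM) and Zfp575 at 0.08 RPKM (listed at 0 in the others). In female Het2 replicate 1, Zfp148 stood at 20.9 RPKM (17.6 to 18.2 RPKM) and Zfp664 (identifier ENSMUSG00000079215) at 56.6 RPKM (42.8 to 43.9 RPKM). In female Het1 replicate 1, Zfp560 stood at 2.74 RPKM (3.01 to 3.06 RPKM), and in female Het1 replicate 2, Zfp850 stood at 4.31 RPKM (0.81 to 1.15 RPKM).

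In 2 members KO lay apart from Het in opposite directions in the sexes, as it did in 0.377% of all tested genes. Zfp574 had 13.1 and 14.3 RPKM in female KO against 7.15 to 12.2 RPKM in female Het, and 10.96 and 8.92 RPKM in male KO against 12.1 to 14.7 RPKM in male Het, a difference between the sexes of 0.85 (limma adjusted p = 1 for the interaction). Zfp668 had 10 and 9.27 RPKM in female KO against 7.32 to 8.52 RPKM in female Het, and 8.40 and 8.25 RPKM in male KO against 8.47 to 11.7 RPKM in male Het, a difference of 0.46 (adjusted p = 1).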

How the results depend on the processing

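The count of members called for KO against Het rested on few libraries. In males it was 1, against 0 with quantile normalization, Het1 alone or Het2 alone, 2 with the replicate block (adding Zfp936, adjusted p = 0.0156) and 0 to 1 with a library left out. Over both sexes it was 2, against 1 with median centring, 0 with quantile normalization, Het1 alone or Het2 alone, 4 with the replicate block (adding Zfp936, adjusted p = 0.0123, and Zfp334, 0.0429) and 0 to 3 with a library left out. In females it was 0, and 0 to 1 with a library left out. The interaction gave 0 throughout. The sex difference in Het, 83 members, was 12 with Het1 alone, 20 with Het2 alone, 108 with the replicate block and 53 to 86 with a library left out. H3K9me3 gave 2 calls at a level of 0.5 RPKM and 1 at 1.5-fold (Zfp575), against 0, and against soma 14 with median centring, against 47. At 2 RPKM no member was left to compare for H3K9me3 or H3K27me3. Zfp558 in females turned to -0.0574 with median centring and -0.1605 with quantile normalization, and Zfp677 in females ran from -0.2268 without female KO replicate 2 to 0.8417 without female KO replicate 1. Of 944 alternatives for 58 single values 901 kept direction and side of the threshold. Replicate numbers are not tied to embryos or days in the labels, so the main tests did not use them. Yet the difference of replicate 1 and replicate 2 correlated above 0.1 in 14 of 15 pairs of groups (lowest -0.04, highest 0.56). Same-numbered libraries thus tended to deviate together, which the main tests leave out. The causes were not tested. Unknown depth limits low promoter values, and similar genes may share reads.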
